A study of Mus musculus with 9 samples.

Results

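Nos2 encodes the inducible nitric oxide synthase, and its messenger RNA was followed in myeloid cells sorted from mouse spleens. It is represented by 1 row of the authors' deposited table of significant changes, under the transcript identifier NM_010927. That table holds 964 rows for 895 distinct gene names, out of 31648 rows measured on each array, and the other 30684 rows carry no gene name here. Nos2 can therefore be named only because the authors had already listed it as changed between the groups of these same samples.

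The cells carried CD11b and Gr1 on their surface, markers that neutrophils, inflammatory monocytes and their immature precursors share, and they were collected by flow cytometry. The tumour-bearing group was 6 single L2-Cre;p120f/f mice, in which Cre removes both copies of the p120 catenin gene. The control group was 3 pools, each of the cells of 3 healthy L2-Cre;p120+/f mice, which carry the same Cre transgene and 1 floxed copy. Both groups were on a mixed C57BL/6x129 background. The L2 promoter is active in squamous epithelium of the mouth, oesophagus and forestomach. Whether Cre acts in the sorted cells was not tested. Some label fields of these samples describe an embryonic age, limb tissue and other genotypes, in conflict with the titles, and they were not used. No usable age was given. Tumour, genotype and pooling coincide with the groups and cannot be told apart. The genes of the sorting gate (Itgam, Ly6g, Ly6c1 and Ly6c2) have no named row and were not analysed here. Because a sorted population is still a mixture, more cells of a type and more RNA per cell cannot be told apart in any value below.

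Nitric oxide synthases make nitric oxide and citrulline from arginine and oxygen. They need NADPH, flavins, heme, tetrahydrobiopterin and calmodulin. The inducible form binds calmodulin so tightly that it works at resting calcium, and its output is set mainly by how much of its messenger RNA is made. In mouse macrophages that RNA is induced by microbial products, which act through NF-kappaB and AP-1, and by interferon-gamma, which acts in part through Irf1. In mice with tumours, CD11b+Gr1+ cells that restrain T cells are often called myeloid-derived suppressor cells. Nos2 is one of the genes through which they do so, because nitric oxide and the loss of arginine both impair T cell signalling and division.

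Nos2 was higher in every tumour-bearing mouse than in every control pool. Its level, as log2 expression, was 7.92, 7.02, 7.41, 7.29, 7.26 and 7.40 in tumour-bearing mice 1 to 6, against 5.87, 5.87 and 5.84 in control pools 1 to 3. The groups did not overlap, and the lowest mouse stood 1.14 above the highest pool on the log2 scale. The mean was 7.38 ± 0.30 in the tumour-bearing mice and 5.86 ± 0.016 in the control pools (SD, n = 6 and n = 3). The difference was 1.52 ± 0.16 (SE), a 2.87-fold rise with a 95% confidence interval of 2.21-fold to 3.73-fold (limma, Benjamini-Hochberg adjusted p = 0.0002674 over all rows). An exact two-sided permutation test of the same difference gave p = 0.0238, the smallest value that 84 assignments of the samples allow. The authors chose the row on these samples, so neither p is independent evidence.

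**Figure D1:**
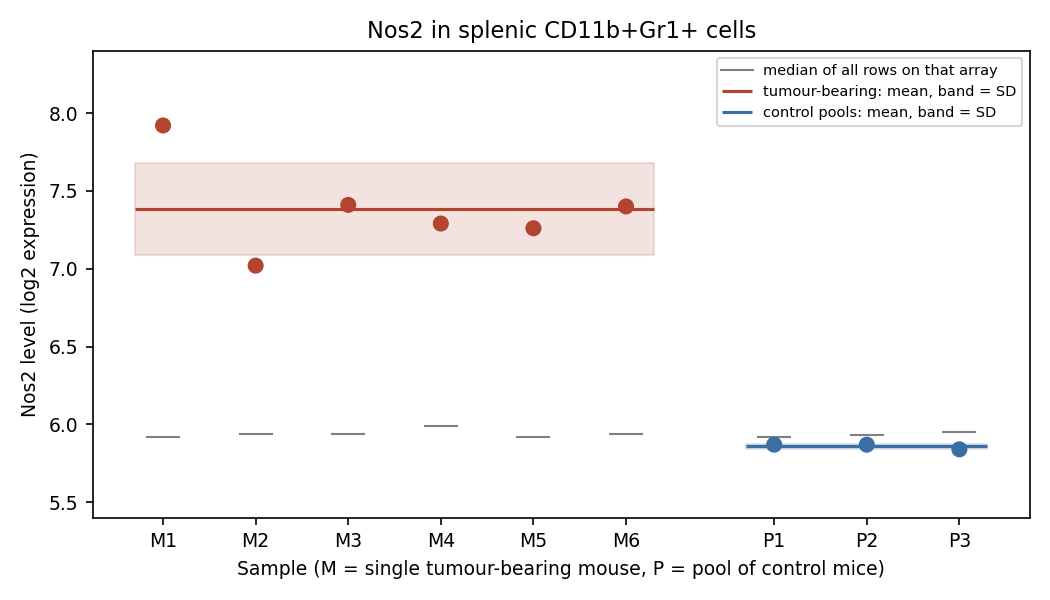
Nos2 level (log2 expression, vertical axis) in each of the 6 tumour-bearing mice (M1 to M6) and the 3 control pools (P1 to P3), with the mean and SD of each group and a grey dash at the median of all rows on that array. The mice lie between 7.02 and 7.92 and the pools between 5.84 and 5.87, just below their array medians.

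Shares over all rows are given for scale only, since Nos2 was listed for its change in this same contrast. Of all 31648 rows, 23.2% changed in either direction at an adjusted p under 0.05. In the upward direction, 14.3% were higher in the tumour-bearing mice at an adjusted p under 0.05, and 1.77% were also at least 2-fold higher. Groups that did not overlap were more common, with 15.4% of rows higher in all 6 mice than in all 3 pools and 24.8% apart in either direction. The median difference over all rows was 0.016. Among the 964 rows the authors listed, 513 were higher, and Nos2 stood at place 206 in the order of differences, close to their median of 1.40. The named genes on either side of it, at the same rounded difference of 1.52, were Gtf2ird1, a transcription factor gene, and Fancm, a DNA repair helicase gene of the Fanconi pathway.

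In the control pools the Nos2 row was at the middle of the array's scale. Set against the median of all rows on its own array, Nos2 was 0.05, 0.05 and 0.11 lower in control pools 1 to 3, while in the tumour-bearing mice it was 1.08 to 2.00 higher. No background call comes with these values, so whether the control level lies above background was not tested. A pseudocount of 16, which damps dim values, gave a difference of 1.30.

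The mice differed among themselves far more than the pools did. Nos2 had a range of 0.90 (log2) among the 6 mice, a 1.86-fold span, against 0.03 among the 3 pools. Of all rows, 88.6% had a smaller SD than Nos2 among the mice, where the median SD was 0.107, and 10.1% had a smaller SD among the pools, where the median was 0.10. Among the 2771 rows with a mean level within 0.25 of that of Nos2, these shares were 92.5% and 5.05%. Nos2 was listed at a p of 0.001, which favours a small SD within groups, so these shares are a description. Each pool averages several animals and each mouse is 1, and the part of pooling in this contrast was not tested.

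Mouse 1 was the highest and mouse 2 the lowest. From the highest to the lowest the mice ran 1, 3, 6, 4, 5 and 2, and mice 3 and 6 differed by 0.01. With 1 array for each mouse there is no error for a single mouse, so the order of neighbours is a description. Without mouse 1 the difference was 1.41 ± 0.089 (SE) or 2.66-fold, with a smaller SE than with all 6 mice. Mouse 1 was also the highest mouse in 338 of the 513 named rows that were higher (65.9%), against 21.5% of all rows. After quantile normalization it was the highest in 312 of the 513, and Nos2 in mouse 1 still stood at 7.82, against 6.99 to 7.39 in the other 5 mice.

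A gene has a name here only if the authors' filter on this contrast kept it, so every named gene below had already been called changed by at least 2-fold. What a count of named genes shows is their direction, and its base is the 964 named rows, of which 513 were higher and 451 lower. No count below is a test of a list. Lists also share genes, so their counts are not separate observations. For example, Arg2, Ptgs2, Il1b, Ciita and Nr4a1 are each counted again in another list.

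Few genes of nitric oxide synthesis and arginine use have a named row. Besides Nos2, values are given for 2 of the 24 genes listed, which are Arg2 and Calm2, and both fell. Gatm, which also uses arginine, was not on this list and rose 3.16-fold. The list is reported only in part, and the authors selected its named rows for change, so no direction is read for the pathway as a whole. Genes not analysed here include Arg1, Nos1, Nos3, the arginine transporter genes Slc7a1 and Slc7a2, the citrulline-recycling genes Ass1 and Asl, and Gch1 of tetrahydrobiopterin synthesis.

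Arg2 encodes the mitochondrial arginase, which uses the same substrate as Nos2 and turns it into ornithine and urea. Its level was 9.71, 10.19, 10.11, 10.17, 10.39 and 10.15 in tumour-bearing mice 1 to 6, against 11.34, 11.62 and 11.35 in control pools 1 to 3. All mice were below all pools, and mouse 1, the highest for Nos2, was the lowest for Arg2. Arg2 fell by 1.32 on the log2 scale, 2.49-fold (limma adjusted p = 0.0002098). Calm2, a gene of calmodulin, fell by 1.01, with levels of 7.30 to 7.70 in the mice and 8.42 to 8.62 in the pools.

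Of 17 genes that respond to nitric oxide or clear it and its oxidants, 2 were named, and both rose, as did 513 of the 964 named rows. Gclm encodes the modifier subunit of glutamate-cysteine ligase, which limits the synthesis of glutathione, the thiol that traps nitric oxide as a nitrosothiol. It rose 2.95-fold, at 9.01 to 9.29 in the tumour-bearing mice and 7.48 to 7.68 in the control pools. Nqo1, a quinone reductase gene, rose 2.77-fold, at 6.37 to 7.10 in the mice and 5.02 to 5.41 in the pools. Its control mean lies below every array median. The receptor of nitric oxide in the guanylate cyclase pathway (Gucy1a1 and Gucy1b1) and the nitrosothiol reductase gene Adh5 were not analysed here.

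The named genes that lead to Nos2 induction in macrophages went the other way. Of 17 sensors and receptors, 3 were named and all 3 fell. Tlr9, which senses microbial DNA, had a difference of -1.37, Tnfrsf1b, a receptor of tumour necrosis factor, one of -1.41, and Nod2, which senses bacterial cell wall fragments, one of -1.48. Of 24 transcription factor genes, 5 were named and all 5 fell, with a median difference of -1.37. Of the named rows, 451 of 964 were lower, and of all rows 8.83% were lower at an adjusted p under 0.05, a share that selected genes cannot be read against.

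Irf1, through which interferon-gamma acts on Nos2 in mouse macrophages, was lower in every mouse. It was 7.44 at the lowest, 7.55 at the median and 7.85 at the highest in the tumour-bearing mice, against 8.91, 9.04 and 8.96 in control pools 1 to 3, a difference of -1.37 ± 0.09 (SE, limma adjusted p = 3.349e-05). Irf7, which acts in type I interferon responses, fell by 1.23. The AP-1 genes Fos, Junb and Jund had differences of -1.58, -1.40 and -1.22.

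These 3 AP-1 genes also belong to a list of immediate-early and heat-shock genes that respond to handling of cells. Of that list 8 of 18 were named and all 8 fell, where 451 of the 964 named rows were lower. They had a mean level of 9.23 to 9.33 in the mice and 10.52 to 10.92 in the pools. The part of handling in these falls was not tested. In a test with a separate variance for each group, Fos, Junb, Jund and Tlr9 no longer passed, at adjusted p between 0.06449 and 0.07155.

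The named genes that are induced together with Nos2 when macrophages are activated were lower while Nos2 was higher. As a base, 451 of the 964 named rows were lower, and 8.83% of all rows were lower at an adjusted p under 0.05. Of 28 genes induced with Nos2, 11 were named and all 11 fell, with differences of -4.07 to -1.13 (log2). They include Ptgs2 (cyclooxygenase-2), Il1b (interleukin-1 beta), the guanylate-binding protein genes Gbp2, Gbp3 and Gbp5, the GTPase gene Irgm1, the MHC class II transactivator gene Ciita, the costimulatory ligand gene Cd80 and the adhesion gene Icam1. Il1b was 9.62 at the lowest, 10.70 at the median and 11.13 at the highest in the mice, against 12.92, 13.29 and 13.02 in control pools 1 to 3. Mouse 1 was the lowest for Il1b, with the other 5 mice at 10.24 or above. Tnfaip3, an NF-kappaB target that dampens the pathway, had the tightest values, 6.77 to 6.92 in the mice and 8.01 to 8.08 in the pools, and fell by 1.17. Il18 fell by 1.19, but did not pass the test with separate variances (adjusted p = 0.1096). Ptgs2, Gbp5 and Il18 had means in the mice below every array median, at 5.81, 4.99 and 5.24. Tnf, Il6, Il12b and Cxcl9 were not analysed here.

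**Figure D2:**
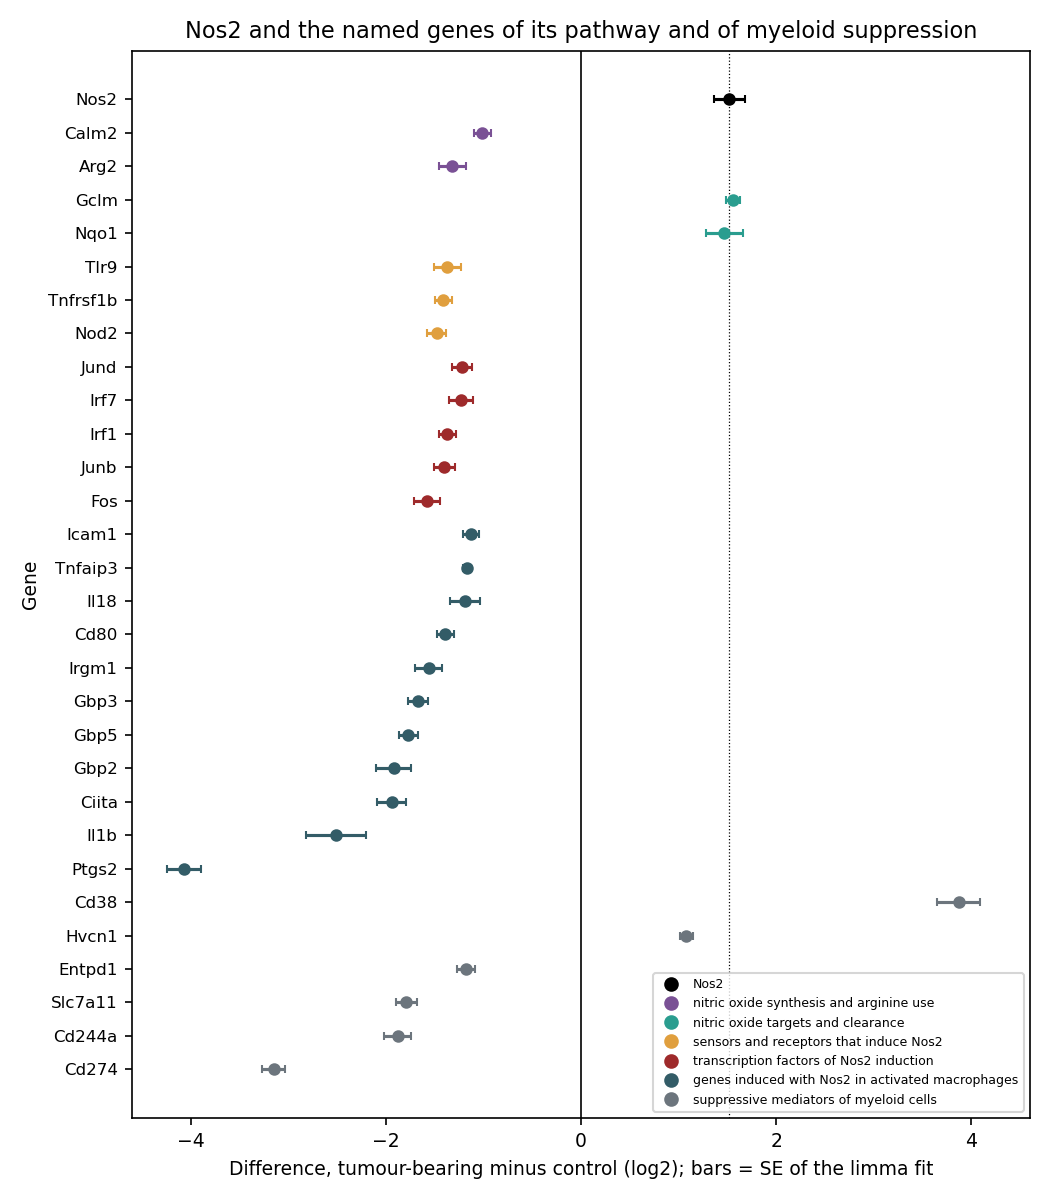
Difference between tumour-bearing mice and control pools (log2, horizontal axis; bars are the SE of the limma fit) for Nos2 and each reported gene of the lists on nitric oxide, Nos2 induction and myeloid suppression, coloured by list, with a gene of several lists drawn once. Nos2 at 1.52 lies on the same side as Gclm, Nqo1, Hvcn1 and Cd38, and all other genes drawn lie below 0.

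A list of suppressive mediators of myeloid cells is also reported only in part, so no direction is read for it as a whole. Of 30 such genes besides Nos2, 8 were named, of which 2 rose and 6 fell, with a median difference of -1.55. Of all 964 named rows, 513 were higher and 451 lower. The genes that rose were Cd38, an ectoenzyme that consumes NAD, and Hvcn1, the proton channel that sustains the phagocyte NADPH oxidase. Those that fell were Ptgs2, Cd274 (the checkpoint ligand PD-L1), Cd244a (the receptor 2B4), Slc7a11 (a cystine importer), Arg2 and Entpd1 (CD39, which degrades extracellular ATP). Arg1, Cybb, S100a8, S100a9 and Tgfb1 were not analysed here. Entpd1 did not pass the test with separate variances (adjusted p = 0.06744).

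To show how unequally Nos2 and these genes changed, the log2 ratio of Nos2 to each of the 8 was taken in every sample and set to 0 at the control mean. The size of such a ratio depends on both probes, and only its change between groups is read. Against Ptgs2 the ratio was 6.16, 4.92, 5.64, 5.61, 5.16 and 6.06 in tumour-bearing mice 1 to 6, and 0.20, -0.18 and -0.02 in control pools 1 to 3. The change was 5.59, or 48.3-fold in favour of Nos2. Ptgs2 was at 5.36 to 6.12 in the mice, around their array medians, so the size of this change rests on a dim row.

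The ratio to the checkpoint gene Cd274 changed 25.4-fold, that to Cd244a 10.5-fold, that to Slc7a11 9.93-fold, that to Arg2 7.14-fold and that to Entpd1 6.50-fold. In each of these all 6 mice stood above all 3 pools. Against Arg2, the enzyme that shares the substrate, the ratio was 3.78, 2.41, 2.87, 2.69, 2.45 and 2.83 in tumour-bearing mice 1 to 6, against 0.11, -0.17 and 0.07 in control pools 1 to 3. Mouse 1 stood apart, as it was both the highest for Nos2 and the lowest for Arg2. A gene selected as higher over a gene selected as lower must separate the groups, so these 6 ratios are a description and carry no test. A test is given only for Cd38 and Hvcn1, which changed in the same direction as Nos2. The plan covered all 8 ratios, and these 2 were kept by a direction already seen. The authors selected both genes and Nos2 on these samples, so neither p is independent evidence.

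Cd38 outran Nos2 in every mouse. Its level was 10.58 at the lowest, 11.12 at the median and 11.39 at the highest in the tumour-bearing mice, against 7.49, 6.78 and 7.26 in control pools 1 to 3, a rise of 3.87 ± 0.22 (SE). The ratio of Nos2 to Cd38 changed by -2.35, with mice at -2.57 to -2.16 and pools at -0.30 to 0.41. Its exact permutation p was 0.0238, or 0.0476 after Benjamini-Hochberg adjustment over the ratios to Cd38 and Hvcn1. Among the mice this ratio had an SD of 0.18, below the 0.30 of Nos2 alone. Among the pools its SD was 0.37, above the 0.016 of Nos2 alone. Mice 1, 3 and 6 were the 3 highest and mouse 2 the lowest for both genes. Mouse 1 was also the highest in 65.9% of the named rows that were higher.

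Hvcn1 rose 2.11-fold, against 2.87-fold for Nos2. Its level was 8.98 to 9.13 in the mice and 7.78 to 8.11 in the pools, a rise of 1.08 ± 0.07 (SE). The ratio of Nos2 to Hvcn1 was 0.90, -0.01, 0.53, 0.39, 0.32 and 0.53 in tumour-bearing mice 1 to 6, against -0.03, 0.19 and -0.17 in control pools 1 to 3, and mouse 2 lay among the pools. The change of 0.44 had an exact permutation p = 0.0476 (adjusted 0.0476). It did not pass after quantile normalization (0.48, p = 0.0714), with the pseudocount (0.27, p = 0.1667) or without tumour-bearing mouse 1, 3, 4, 5 or 6 (0.35, 0.42, 0.45, 0.47 and 0.43, exact p = 0.0714 each), so whether Nos2 rose more than Hvcn1 depends on these choices.

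**Figure D3:**
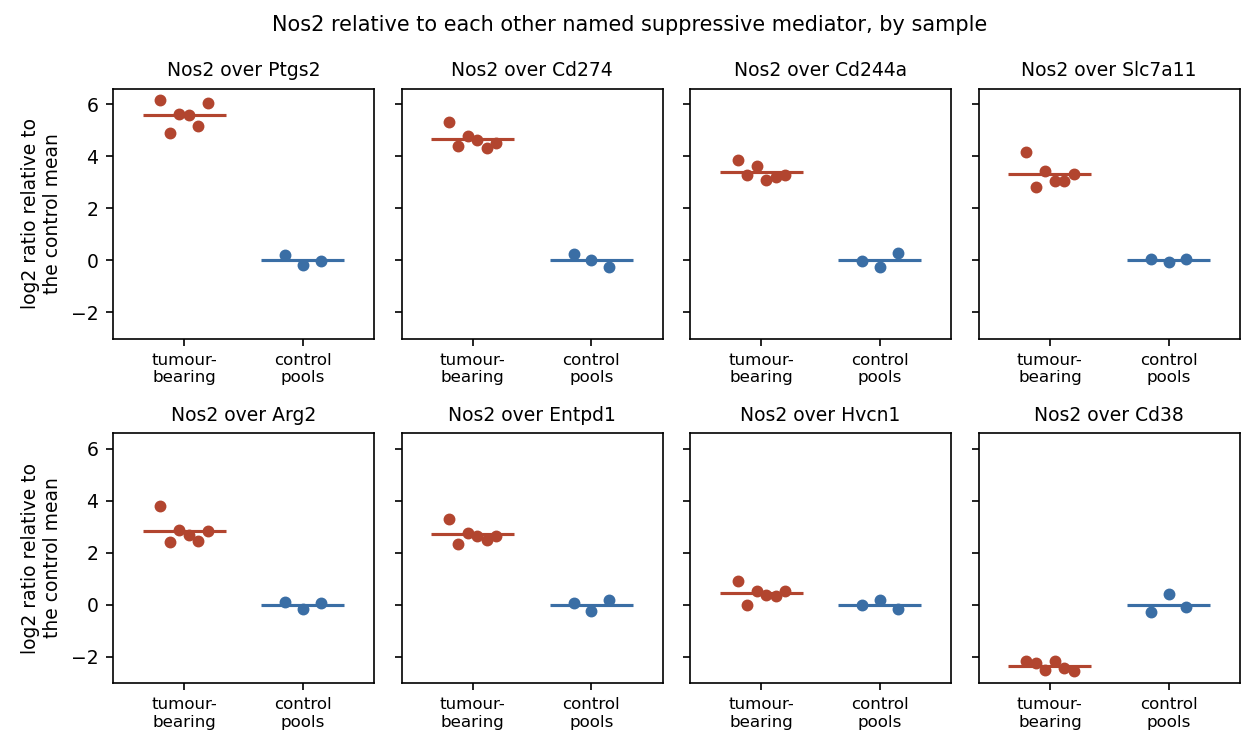
Log2 ratio of Nos2 to each of the other 8 named suppressive mediators in every sample, set to 0 at the mean of the control pools (vertical axis; points are the 6 mice on the left and the 3 pools on the right of each panel, lines are group means). The mice lie above the pools for 6 genes, below them for Cd38, and overlap them for Hvcn1.

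The genes whose profile over the 9 samples was most like that of Nos2 were found among the named genes, after each row was centred on the mean of its group means. Likeness was the mean absolute difference between the 9 centred values, in log2 units. It was 0.078 for the nearest gene and 0.131 for the eighth, against medians of 0.431 over named rows and 0.753 over all rows. No unnamed row lay nearer than the eighth gene. The authors' filter named rows changed by at least 2-fold, so this outcome was largely set in advance. Like Nos2, each of these 8 genes had its highest value in mouse 1. They were picked on these same 9 values, which favours this. Mouse 1 was also the highest in 65.9% of the named rows that were higher. After quantile normalization 6 of the 8 were again among the nearest, the exceptions being Depdc1a and Trak2.

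Slc7a5 was the nearest. It encodes a transporter of large neutral amino acids that dividing and activated cells raise. Its level was 9.54, 8.86, 9.39, 9.04, 8.94 and 9.19 in tumour-bearing mice 1 to 6, against 7.68, 7.61 and 7.70 in control pools 1 to 3, a 2.82-fold rise. It ranked the 6 mice in the same order as Nos2, and no other named row did. Over all rows besides Nos2, 22 had this order, Slc7a5 included, or 0.0695%. Among so many rows some share any order of 6 mice by chance, and mice 3 and 6 were at 7.41 and 7.4 for Nos2. No test of the shared order was made, and it is a description. Gatm, at a likeness of 0.125, encodes the enzyme that takes the amidino group of arginine to start creatine synthesis, and so draws on the substrate of Nos2. It was 9.89 to 10.42 in the mice, with mouse 1 the highest, and 8.28 to 8.52 in the pools, a 3.16-fold rise.

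The others were Gclm, described above, Rnaseh2b (a subunit of the nuclease that removes ribonucleotides from DNA), Ndc1 (a membrane protein of the nuclear pore), Trak2 (an adaptor for transport of mitochondria), Kif14 (a kinesin of cell division) and Depdc1a (a gene of mitotic cells). They rose 2.64-fold to 3.06-fold. Depdc1a is dim, with a control mean of 3.75. Likeness of profile in 9 samples that fall into separate groups is mostly a likeness in the size of the difference.

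**Figure D4:**
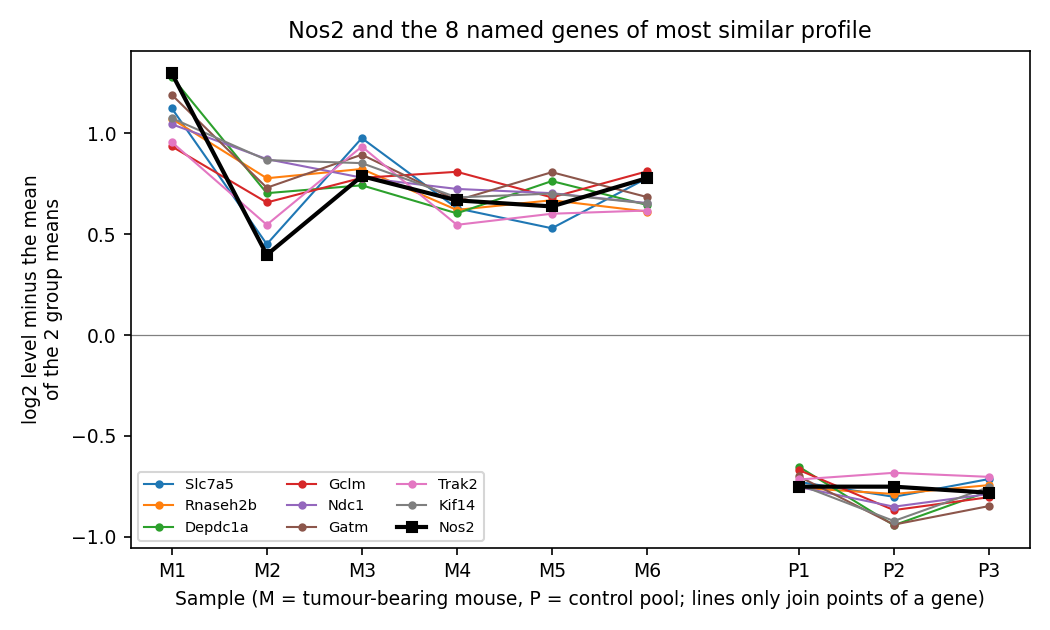
Level of Nos2 (black squares) and of the 8 named genes nearest to it in profile, each minus the mean of its 2 group means (log2, vertical axis), in the 6 tumour-bearing mice and the 3 control pools; lines only join the points of a gene. All 9 genes have their highest value in mouse 1, which the choice by likeness favours, and Slc7a5 follows Nos2 in its order of the mice.

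Markers of cell types within the gate also differed between the groups. The bases for these counts are again the named rows (513 of 964 higher, 451 lower). Of all rows, 14.3% were higher and 8.83% lower at an adjusted p under 0.05. Named rows exist for 9 of 16 granulocyte precursor genes, and each of the 9 was higher, with differences of 1.14 to 4.42, the largest for the granule genes Ctsg, Mpo and Prtn3 and for Ms4a3. Their mean level was 10.62 to 11.18 in the tumour-bearing mice, with mouse 1 the highest, and 7.89 to 8.38 in the control pools. Named rows exist for 5 of 16 genes of mature neutrophils, and each of the 5 was lower, with a mean level of 8.94 to 9.83 in the mice, mouse 1 the lowest, and 11.39 to 11.61 in the pools.

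As a base, 513 of the 964 named rows were higher, and 14.3% of all rows were higher at an adjusted p under 0.05. Named rows exist for 16 of 18 genes of dividing cells, and each of the 16 was higher, with differences of 1.22 to 2.48. Their mean level was 9.21 to 9.69 in the mice, mouse 1 the highest, and 7.18 to 7.60 in the pools.

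Named rows exist for 7 of 20 genes of monocytes and macrophages. Each of the 7 was lower, including the receptor genes Csf1r and Adgre1, with Mpeg1 and Nr4a1. The mean level of the 7 was 8.33 to 8.78 in the mice and 9.98 to 10.11 in the pools. As a base, 451 of the 964 named rows were lower, and 8.83% of all rows were lower at an adjusted p under 0.05. For dendritic cells and MHC class II, 6 of 14 genes have a named row and each of the 6 was lower, the most for H2-Aa, Cd74, H2-Ab1 and Itgax, with a mean of 6.62 to 7.32 in the mice and 9.60 to 9.94 in the pools.

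For other cell types, 1 marker each was named of 10 for B cells (Cd22, which fell) and 10 for erythroid cells (Tfrc, which rose). The same held for 8 of basophils and mast cells (Ms4a2, which rose) and 6 of platelets (Thbs1, which fell). The presence of a cell type is not read from 1 marker. None was named of 12 for T and natural killer cells or of 7 for eosinophils, and those were not analysed here. The part of each cell type in the rise of Nos2 was not tested.

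**Figure D5:**
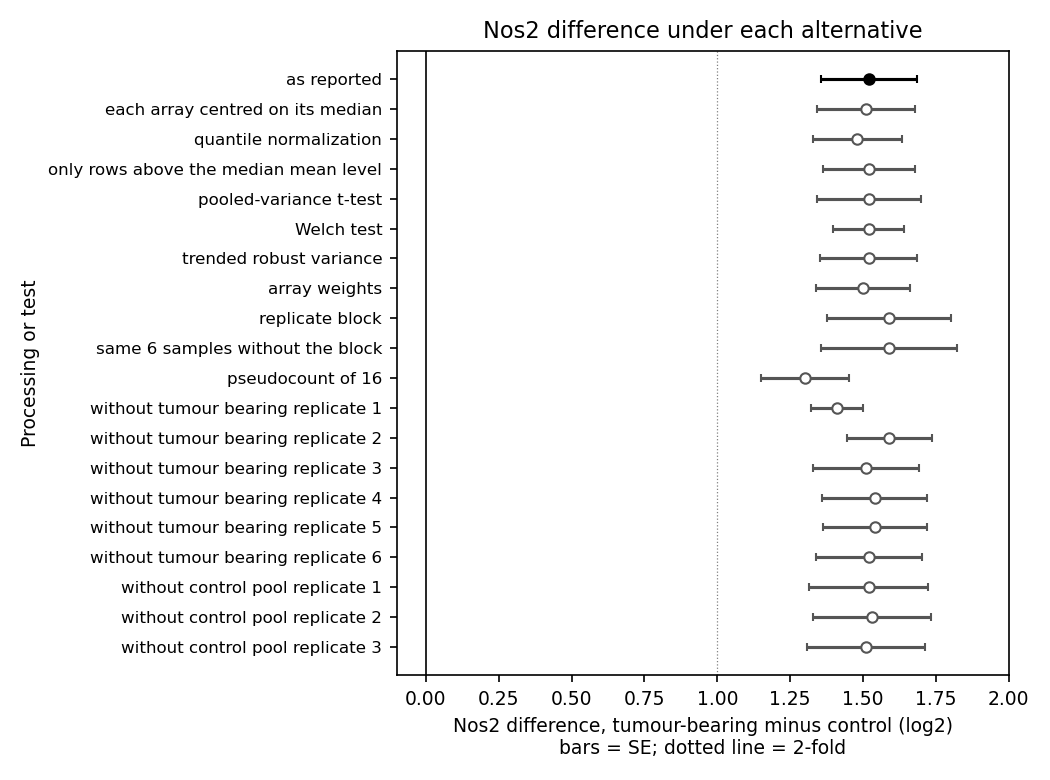
Difference in Nos2 between tumour-bearing mice and control pools (log2, horizontal axis; bars are the SE) as reported (filled point) and under each alternative normalization, filter, test or set of samples (open points). All values lie between 1.30 and 1.59, above the dotted line at a 2-fold change.

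The rise of Nos2 passed under all 19 alternatives drawn in the plot of alternatives, with differences of 1.30 to 1.59. The highest adjusted p was 0.04161, with the replicate number as a block, a fit that keeps 3 mice and 3 pools. Nos2 was listed for its change in these same samples, so this outcome was largely set in advance. The exact permutation test, not among the alternatives drawn, did not pass without any 1 control pool (smallest possible p = 0.0714).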

How the data were processed

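Total RNA of sorted cells was amplified, labelled with biotin and hybridised to Affymetrix expression arrays, per the labels' protocols. The authors deposited log2 expression values, 1 per row and sample, normalized across arrays. RMA, PLIER, Affymetrix Power Tools and the mouse build mm9 appear in the submitters' processing notes. The sources used here do not say which method made these values and give no tool versions. The log2 scale was read from the values, which range between 1.95 and 13.95. Array medians lay between 5.92 and 5.99. Pairs of arrays correlated at 0.985 to 0.991 within a group and at 0.954 to 0.974 across groups. Arrays give no count of molecules, and their number limits the precision.

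The authors' deposited table was selected at a p of 0.001 and a 2-fold change, per the series design. Its 964 rows each matched 1 row of the value table on 9 values to 5 decimals, which gave those rows names, updated through RefSeq (GRCm38.p6). No coordinates are given because builds differ. For a gene with several rows the row of highest mean was used; Nos2 has 1.

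All 31648 rows were fitted with limma 3.58.1 in R 4.3.3 (lmFit, eBayes, two-sided, Benjamini-Hochberg, threshold 0.05), tested on simulated data. Exact permutation tests used SciPy 1.17.1. Named are Nos2, all named genes of 6 lists on nitric oxide, Nos2 induction and suppression, up to 4 genes of each of 13 marker lists, the 8 nearest profiles and the neighbours in the order of differences. Some genes of the lists are not reported here and are left out of list counts. Members, lists and alternatives were chosen with earlier results of these data known. Observations on single mice were made after values were seen. The alternatives comprised a filter on dim rows, quantile normalization, centring on array medians, tests with a pooled and with a separate variance for each group, trended robust variance, array weights, a pseudocount of 16, the replicate block, the same 6 samples without it (added after seeing the data) and leaving out each sample. Replicates are separate mice or pools, per the titles.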

Additional observations from a re-analysis of the deposited data

Results flagged for a closer look

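In 3 of 71 items examined, 1 tumour-bearing mouse stood far from the other 5 relative to the group's whole range, where chance gives about 3.5. The ratio of Nos2 to Arg2 (log2, set to 0 at the control mean) was 3.78 in mouse 1, against 2.41 to 2.87 in the other mice. Depdc1a was at 5.82 in mouse 1, against 5.15 to 5.31 in the others. Cd80 was at 7.12 in mouse 4, against 7.33 to 7.43. In all of these every mouse remained on the same side of the control pools. Nos2 itself, with mouse 1 at 7.92, had a gap of 0.566 of the range and did not stand out by this measure.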

How the results depend on the processing

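The Nos2 difference kept its direction and its call under all 19 alternatives, at 1.30 (pseudocount) to 1.59. The authors chose the row on these samples, so this is not independent evidence. Deviations from the group means correlated at 0.09, 0.01 and 0.02 between a mouse and a pool of equal number, so no pairing was assumed. With the replicate block Nos2 stood at 1.59 (adjusted p = 0.04161), and the same 6 samples without the block gave 1.59 (adjusted p = 0.01119). The 7333 rows changed became 4289 with the replicate block, 5757 in those 6 samples without it and 3812 with a separate variance for each group. Under that last test 2 of the 5 transcription factor genes remained called. For the 62 other named genes, 8 of 1175 values no longer passed (7 with separate variances, and Thbs1 also with the block) and 0 reversed. Leaving out 1 sample gave a Nos2 difference of 1.41 to 1.59. The exact permutation test did not pass without any 1 control pool, where its smallest possible p is 0.0714. The same limit holds for the ratios to Cd38 and Hvcn1. Over the samples left out, the ratios of Nos2 changed by 2.65 to 2.92 (Arg2), 5.48 to 5.73 (Ptgs2), 4.54 to 4.79 (Cd274), 3.14 to 3.41 (Slc7a11), 3.27 to 3.54 (Cd244a), 2.58 to 2.79 (Entpd1), 0.35 to 0.54 (Hvcn1) and -2.50 to -2.15 (Cd38). The Hvcn1 ratio also lost its call after quantile normalization (0.48) and with the pseudocount (0.27), and the cause was not tested. No detection call was used, so a dim row may be an undetected one.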
